A study of Mus musculus with 96 samples.

Results

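The primary cilium genes described here are 44 genes listed by symbol: subunits of the intraflagellar transport (IFT) trains, their motors, and proteins of the ciliary membrane, the ciliary gate and the basal body. The rule is the list of symbols and uses no measured value, but the list was drawn up with earlier results of these data known. Of the 44, 43 had counts on a coding sequence among the 22422 genes held, and all 43 passed the filter on low counts in both RNA and ribosome footprints. Tctn2 has no coding transcript in the annotation used and is given separately. The 44 fall into IFT-B (13 genes), IFT-A (6), motors (5), membrane protein entry and lipids (3), the Evc complex (4), the BBSome (7), and transition zone and basal body (6).

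The primary cilium is a single non-motile antenna on most vertebrate cells, built on the older centriole (the basal body). Large IFT-B trains are pulled to the tip by the kinesin-II motor (Kif3a, Kif3b and the adaptor Kifap3), and IFT-A trains return with the dynein-2 motor (Dync2h1, Dync2li1). Proteins of the transition zone act as a gate at the cilium's base, and the BBSome carries membrane proteins out. In the neural tube the cilium is where Hedgehog signals are read: loss of IFT subunits disturbs the choice of ventral cell fates, and the Evc complex at the base of the cilium passes on the signal of Smoothened.

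The tissue was neural tube from E11.5 mouse embryos, wild type (genotype C3HeB) or heterozygous for the Xs-J allele of Eif3c (C3HeB/Eif3cXs-J/+), and the labels name no treatment. Eif3c encodes a subunit of eIF3, an initiation factor that binds the small ribosomal subunit. Each of the 3 pools per genotype came from papain-dissociated cells of the neural tubes of 1 litter, per the labels, and was divided between RNA-seq of poly(A) mRNA and ribosome profiling, which sequences the 28 to 31 nt mRNA fragments that ribosomes protect, giving 12 libraries. Whether different pools stem from different litters is not in the labels, and p-values here speak only of the spread among these pools. Values are on the counts-per-million scale (CPM) over coding sequences, scaled between libraries, and changes are log2 of mutant over wild type ± SE from edgeR's quasi-likelihood test, with p-values adjusted over all genes tested (Benjamini-Hochberg) and a threshold of 0.05.

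RNA libraries held 7200322 to 13137407 counts on coding sequences and footprint libraries 11310843 to 59202834. Mutant footprint pool 1, the shallowest, was summed over its 4 complete lanes, because its other 4 held counts on at most 3 chromosomes. Eif3c had 518, 497 and 474 CPM of RNA in wild-type pools 1, 2 and 3 and 296, 289.8 and 302 in the mutant pools. Its footprints were 760.2, 739.9 and 743 CPM against 403, 355 and 379, so the mutant pools match their label in both assays (footprints -0.98 ± 0.07, adjusted p = 0.00131). Markers of neural progenitors and of neurons were all detected, and of the 6 surface epithelium markers Krt14 stayed under 1 CPM in both assays. On the first principal component wild-type pools lay between -13.4 and -9.04. Mutant pool 1 lay furthest from them (24.2 in RNA and 29.4 in footprints), then mutant pool 3 (10.5 and 10.6), and mutant pool 2 was nearest (-3.86 and -3.94). Mutant pool 1 held the most erythroid marker RNA, 6582 CPM against 2741 to 3425 in the other 5 pools. Summed neuron markers were lower in every mutant pool, with 3868, 4576 and 3977 CPM of RNA against 4906 to 4989 in wild type, and 7319, 8143 and 6953 CPM of footprints against 8407 to 9149. Mesenchyme and somite markers were higher in every mutant pool in footprints, at 1116 to 1776 CPM against 926 to 1092. Their RNA overlapped between genotypes, at 561 to 863 CPM in the mutant pools and 478 to 865 in wild type. All 26 listed cell cycle genes had RNA values above 0 in the mutant (7126 of all 13406 genes did), with a median of 0.29. The test was passed by 3 of them, and by 0.388% of all genes. In footprints 22 of the 26 were above 0 (7039 of all 13423 genes were), with a median of 0.11, and 1 passed (0.253% of all genes). In footprints relative to RNA 19 of the 26 were below 0 (49.4% of all genes were), with a median of -0.16. The part of these cell types and of the cell cycle in the results that follow was not tested. In bulk tissue, fewer cells of a type and less RNA per cell cannot be told apart.

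A feature that many of the genes share lies in their promoters. Ciliary genes are known targets of RFX transcription factors, which bind the X-box, an inverted repeat of a GTTNCC half-site. Promoters (250 bases before to 50 after the start site, RefSeq on GRCm38.p6) were held for 37 of the 44 genes. Searched on both strands, the half-site GTTGCC was present in 17 of the 37 (45.9%), against 14.1% of all 27025 promoters, 15.0% of those of genes tested in both assays, and 34.4% of 64 promoters of other cilium genes. The full pair, GTTNCC followed within 3 bases by GGNAAC, occurred in 4 of the 37 (10.8%), against 0.936% of all promoters and 10.9% of those of other cilium genes, and every one of the 4 also counts among the half-site matches. These 4 are printed because they show the shared element in its complete form, on the strand of the gene, with the pair in capitals and as many flanking bases as the window held. Ift57 (chr16:49699228-49699252, + strand) and Tctn1 (chr5:122264411-122264430, - strand) come first, then Bbs7 (chr3:36613491-36613516, - strand) and Mks1 (chr11:87853185-87853210, + strand).
Ift57: cctgcgGTTGCCTGGTAACggtggg
Tctn1: gtgactGTTGCCCGGGCAAC
Bbs7: gccccgGTTGCCTTGGAAACcggcca
Mks1: gtctccGTTGCCAGGGGAACgaggca
The matches are letters in a window, not measured binding. Half-sites without the pair were found in Ift27, Ift88, Ift140, Ift172, Traf3ip1, Wdr35, Kif3a, Dync2h1, Arl13b, Evc, Bbs1, Bbs5 and Tctn2. Of the 6 Rfx genes listed, Rfx4 had the highest RNA per kb in wild type (68.2 CPM per kb), and none of the 6 passed the test between genotypes in RNA or in footprints, the smallest adjusted p being 0.113 for Rfx1 footprints.

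In wild-type neural tube the cilium genes were of middling abundance, with a wide range between roles. The median was 19.4 CPM of RNA per kb of coding sequence and 16.99 CPM of footprints per kb, at percentiles 43.2 and 46.2 of all genes tested. By RNA the kinesin-II genes Kifap3 and Kif3a stood highest: Kifap3 had 69.5 ± 2.68 (SD, n = 3) CPM of RNA per kb and Kif3a 68.5 ± 3.05, a difference within their spread, while Kif3b, the second motor subunit, had 29.5 ± 0.893. In footprints per kb the order was Kifap3 (118 ± 3.07), Ift22 (81.1 ± 6.20), Kif3a (78.6 ± 2.24) and Ift43 (75.4 ± 2.30), where the means ± SD of each of the last 3 and its neighbour overlap. IFT-B had a median of 28.5 CPM of footprints per kb, close to the 28.1 of the motors, and ranged from Ift22 down to Ttc30b, 3.85 ± 0.259. Ttc30b has near-identical copies (Ttc30a1 and Ttc30a2), and how reads shared between copies were assigned is not known here. The IFT-A median was 17.6, with Ift43 highest and Wdr19 lowest (13.9 ± 0.218), and that of the BBSome 17.5, with Ttc8 highest (27.3 ± 0.710) and Bbs9 lowest (11.7 ± 0.592). The membrane entry genes ran from Tulp3 (15.5 ± 0.0700) to Inpp5e (9.83 ± 0.0659). The transition zone and basal body genes ran from Rpgrip1l (11.8 ± 0.304) to Cep290 (7.05 ± 0.708). The Evc complex had the lowest median of the 7 roles, 4.86, from Iqce (10.3 ± 0.242) to Evc, 2.20 ± 0.318. From Kifap3 to Evc the footprints per kb span 53.8-fold, more than the 25.7-fold span of RNA per kb between Kifap3 and Ttc30b.

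**Figure D1:**
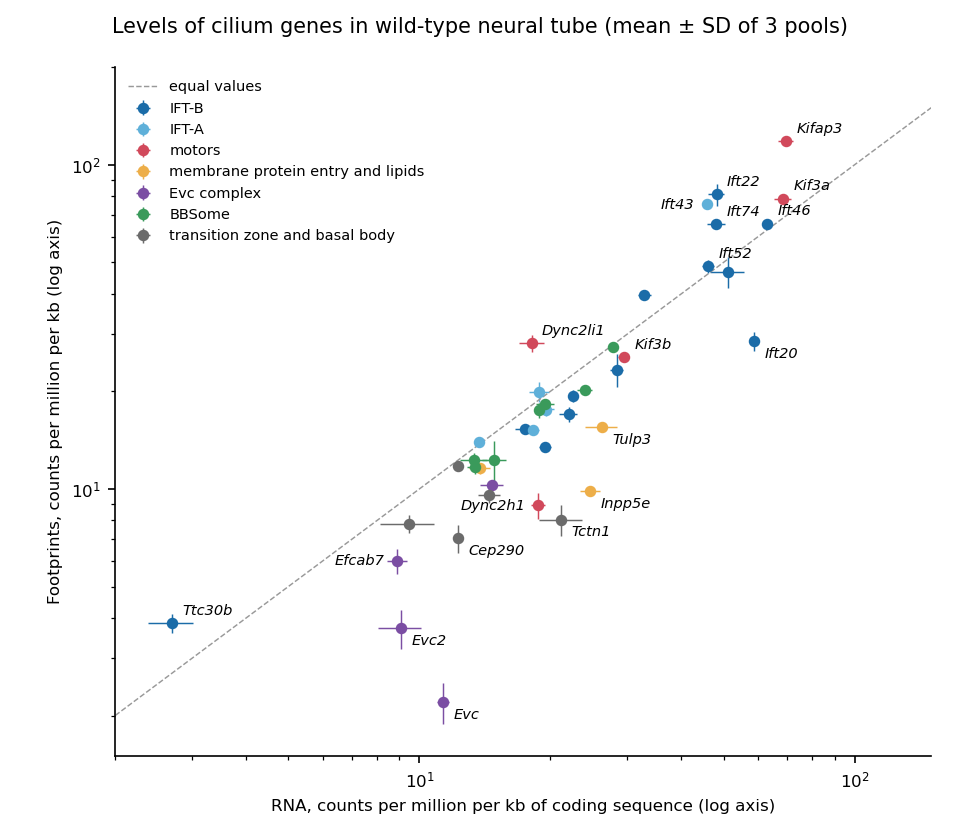
Wild-type levels of the 43 cilium genes, RNA (horizontal) against footprints (vertical), both in CPM per kb of coding sequence on log axes; points are means of 3 pools, bars the SD, colours the roles, and the dashed line marks equal values. Kifap3 lies at the top right (69.5 and 118), and Evc, Evc2, Inpp5e, Tctn1 and Dync2h1 lie furthest below the line.

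How many footprints a cilium mRNA carried was tested in wild type as footprints per mRNA, the log2 of a gene's share of footprints over its share of RNA, where 0 means equal shares. Of the 43 genes, 8 were above 0 and 20 below it past the threshold (18.6% and 46.5%), against 30.4% and 39.9% of all 13877 genes tested; 70.3% of all genes passed in one direction or the other. The median of the 43 was -0.19 and that of all genes -0.08. The cilium genes were thus spread on both sides, as genes in general were. With an offset for coding GC content in the fit the balance turned over: 15 of the 43 were above 0 and 10 below it past the threshold (34.9% and 23.3%), against 44.6% and 30.4% of all 13819 genes, and the medians moved to 0.03 for the 43 and 0.20 for all genes. With the cell pool as a block, 33 passed, the same 8 above 0 and 25 below it, and the 5 added were Ift57, Ift140, Traf3ip1, Bbs7 and Mks1. The share of all genes that passed with the block is not given here, so the added calls cannot be read as particular to cilium genes. Without the offset, motors and train subunits were found at both ends. Genes of the membrane entry, Evc complex, BBSome, and transition zone and basal body roles were then found only below 0.

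Within the motors the subunits parted. Kifap3 (0.77 ± 0.11), the adaptor of kinesin-II, and Dync2li1 (0.65 ± 0.10), the light intermediate chain of dynein-2, carried more footprints than their RNA share, and Kif3a slightly more (0.20 ± 0.08). Kif3b was below 0 (-0.21 ± 0.08), and Dync2h1, the dynein-2 heavy chain with 4313 codons, had -1.08, -1.19 and -0.95 in wild-type pools 1, 2 and 3 (-1.07 ± 0.09, a 0.475-fold share). IFT-B spanned nearly the same range. Ift22 (0.75 ± 0.09), a small GTPase, and the core pair Ift74 (0.45 ± 0.09) and Ift81 (0.26 ± 0.07), which bind tubulin as cargo, were above 0 with Ttc30b. Ift172, Ift88 and Ift80 were below 0 (-0.53 ± 0.08, -0.37 ± 0.10 and -0.22 ± 0.08), and Ift20, which also sits at the Golgi and sorts membrane cargo, was lowest (-1.05 ± 0.10). The 5' untranslated region (UTR) of the Ift20 transcript used is 447 nt long and holds 8 ATG triplets, and footprints lay on it at 142% of the density of the coding sequence, from 276 to 1115 footprints per pool. Higher densities were found in genes above 0, such as Ift22 (162%) and Dync2li1 (183%), and in genes below 0, such as Inpp5e (201%). The 5' UTRs of Ift22 and Dync2li1 are only 82 and 73 nt long, and that of Inpp5e 613 nt. Densities over such unlike lengths are not strictly comparable. The part of the 5' UTR in the Ift20 value was not tested. In IFT-A, Ift43 was above 0 (0.72 ± 0.10), Wdr35 and Ttc21b were below 0 (-0.15 ± 0.06 and -0.27 ± 0.06), and Ift122 did not pass (0.09 ± 0.09).

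The 3 membrane entry genes and the 4 Evc complex genes were below 0 past the threshold, of which Arl13b (-0.04 ± 0.10) and Efcab7 (-0.09 ± 0.11) did not pass with the GC offset. Tulp3, the adaptor that brings receptors into the cilium on IFT-A, had -0.77 ± 0.08. Inpp5e, the phosphatase that sets the ciliary phosphoinositide, had -1.25, -1.40 and -1.27 in pools 1, 2 and 3 (-1.33 ± 0.08 in the fit), and Arl13b, the GTPase that retains it, -0.25 ± 0.10. Evc2 had -1.38, -1.15 and -1.24 in the 3 pools, Efcab7 -0.56 ± 0.10 and Iqce -0.51 ± 0.09. Evc was the lowest of the 43, with -2.10, -2.48 and -2.29 in pools 1, 2 and 3 (-2.34 ± 0.14, adjusted p = 2.4e-09), a 0.197-fold share. The body of the Evc gene overlaps that of Crmp1 on the other strand over 3036 bases, and it is not stated whether the authors' counting used the strand, so RNA of the 2 genes cannot be told apart there. The same holds for Inpp5e with Pmpca, Tctn1 with Hvcn1, Ofd1 with Trappc2, Cep290 with 4930430F08Rik, Ift74 with Lrrc19, Ift140 with Tmem204, Arl13b with Stx19, Efcab7 with Itgb3bp and Bbs4 with Adpgk.

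Among the gate proteins, Tctn1 (-1.41 ± 0.11), Cep290 (-0.80 ± 0.09) and Ofd1 (-0.60 ± 0.09), a protein of the distal centriole, were below 0, whereas Rpgrip1l (-0.06 ± 0.06) and Mks1 (-0.28 ± 0.13) did not pass. With the GC offset Tctn1 stayed low (-1.11 ± 0.11), Ofd1 was nearer 0 (-0.22 ± 0.08), Cep290 did not pass (-0.15 ± 0.12), and Rpgrip1l passed above 0 (0.21 ± 0.07). The 7 BBSome genes had negative values, and Bbs2 and Bbs9 passed (-0.25 ± 0.07 and -0.19 ± 0.08). With the GC offset Bbs2 alone stayed below 0 (-0.04 ± 0.07), neither it nor Bbs9 passed, and Bbs1 (0.28 ± 0.07) and Bbs5 (0.26 ± 0.11) passed above 0. The BBSome values ran only from Ttc8 (-0.03 ± 0.08) to Bbs7 (-0.27 ± 0.13), a much narrower range than that of the motors. In all, 13 of the 43 genes turned from negative to positive values with that offset. Genes in general moved the same way: 53.8% of all genes were below 0 without the offset and 41.5% with it. Values slightly above 0 with the offset were thus common among all genes.

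**Figure D2:**
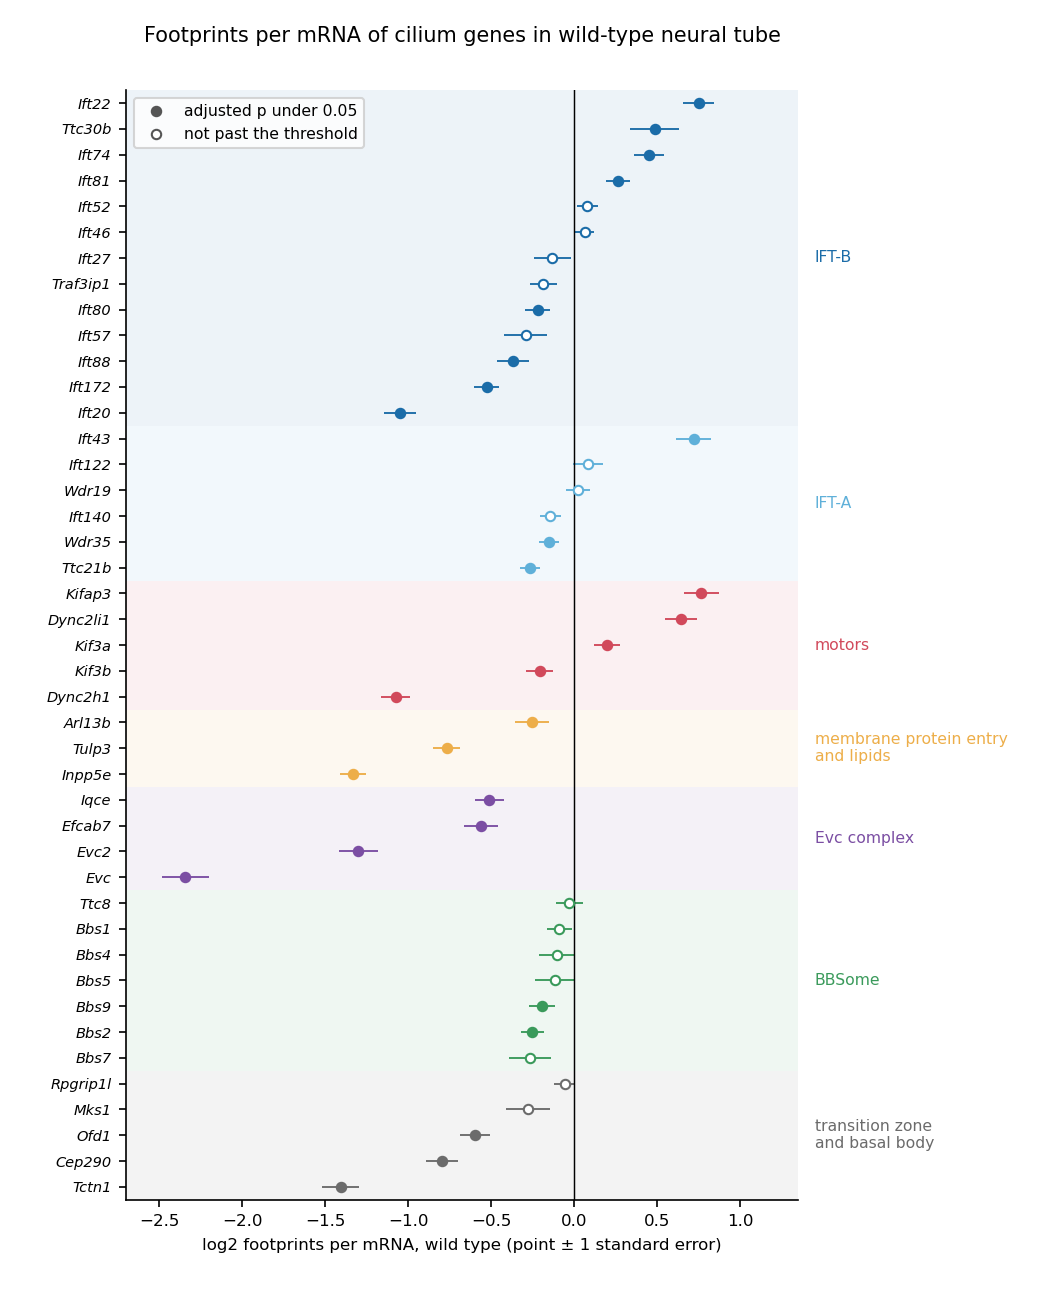
Footprints per mRNA of the 43 cilium genes in wild type, as log2 with 0 meaning equal shares of footprints and RNA; points are estimates, bars 1 SE, filled points passed an adjusted p of 0.05, and genes are ordered within their role. Evc lies lowest (-2.34), and Kifap3 and Ift22 highest (0.77 and 0.75).

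The letters around the start codon are shown for the 4 lowest and the 4 highest of the 37 genes with a window, in ascending order, since a purine 3 bases before the ATG and a G after it are the known features of a strong context. They come from the GENCODE vM21 transcripts used for counting, with the start codon in capitals. Ift43 and Dync2li1, also at the high end, have no window.
Evc: tgagccctccATGacctgca
Tctn1: ctgctaggccATGgggtcgc
Inpp5e: ggtctggactATGccatcca
Evc2: tagccaccagATGggggcga
Ift74: aaagtgaacaATGgccagta
Ttc30b: ctaggtgaatATGgcagggc
Ift22: acggacagcgATGctgaagg
Kifap3: cgccgccgccATGcaaggcg
A purine stood 3 bases before the ATG in 33 of the 37 genes with a window (89.2%), against 85.8% of 12731 genes. The 4 without it were Evc, Evc2, Ofd1 and Ift88. All 4 had fewer footprints than their RNA share, as did 31 of all 43 cilium genes (72.1%). A G followed the ATG in 43.2% against 52.5%. Of the 8 windows shown, both features are present in Tctn1, Ift74 and Ttc30b, so they occur at both ends of the order. These windows were read after the values were known. Across the 43 genes, Spearman's rho of footprints per mRNA was -0.28 with coding length and -0.14 with coding GC content, and across all genes -0.35 and -0.06, as descriptions over genes that share libraries.

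Between mutant and wild type no cilium gene passed the threshold. The count was 0 of 43 in RNA, where 0.388% of all 13406 genes passed (52 genes), and 0 of 43 in footprints, where 0.253% of all 13423 genes passed (34 genes). In footprints 33 of the 43 genes had values below 0 (76.7%, against 47.6% of all genes), and the median was -0.08 against 0.01 for all genes. Pools of the 2 genotypes did not overlap, with the mutant lower, for 13 of the 43 (30.2%, against 14.8% of all genes), and with the mutant higher for 3 (6.98%, against 14.4%). At an unadjusted p under 0.05, 8 genes were lower (18.6%, against 11.1% of all genes) and 1 was higher (2.33%, against 11.7%). In RNA, 18 of 43 values were below 0, the median was 0.02 against 0.01, 1 gene was higher (8.29% of all genes) and 1 lower (9.24%) at an unadjusted p under 0.05, and the pools did not overlap for 4 higher genes (11.2% of all genes) and 2 lower ones (11.0% of all genes). Added up over the 43 genes, footprints were 2083, 2016 and 2091 CPM in the wild-type pools and 1829, 1926 and 1838 in the mutant pools, which do not overlap. Without Kif3a and Kifap3 the sums were 1647, 1593 and 1645 against 1522, 1545 and 1518 CPM. The median over the 43 genes did overlap, at 40.9, 36.9 and 39.1 CPM in wild type and 32.3, 34.5 and 38.2 in the mutant. The RNA sums, 2252 to 2312 CPM in wild type and 2200.2 to 2325 in the mutant, overlapped as well.

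The calls depended on 1 pool and on the tool. Without mutant pool 2, 4 cilium genes passed in footprints, Kifap3 (-0.52 ± 0.06, adjusted p = 0.00382), Kif3a (-0.42 ± 0.06, 0.00598), Ofd1 (-0.43 ± 0.09, 0.0186) and Cep290 (-0.37 ± 0.10, 0.0330), and 2333 genes in all did so (17.1%). With DESeq2, Kif3a, Kifap3 and Cep290 passed among 838 genes (6.24%). Without mutant pool 1, the pool rich in erythroid RNA, none passed in footprints, 34 of 43 values were below 0 and the median was -0.09. With the incomplete lanes of that pool included, none passed, and the values of Kif3a and Cep290 were nearer 0 (-0.17 ± 0.12 and -0.07 ± 0.25).

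**Figure D3:**
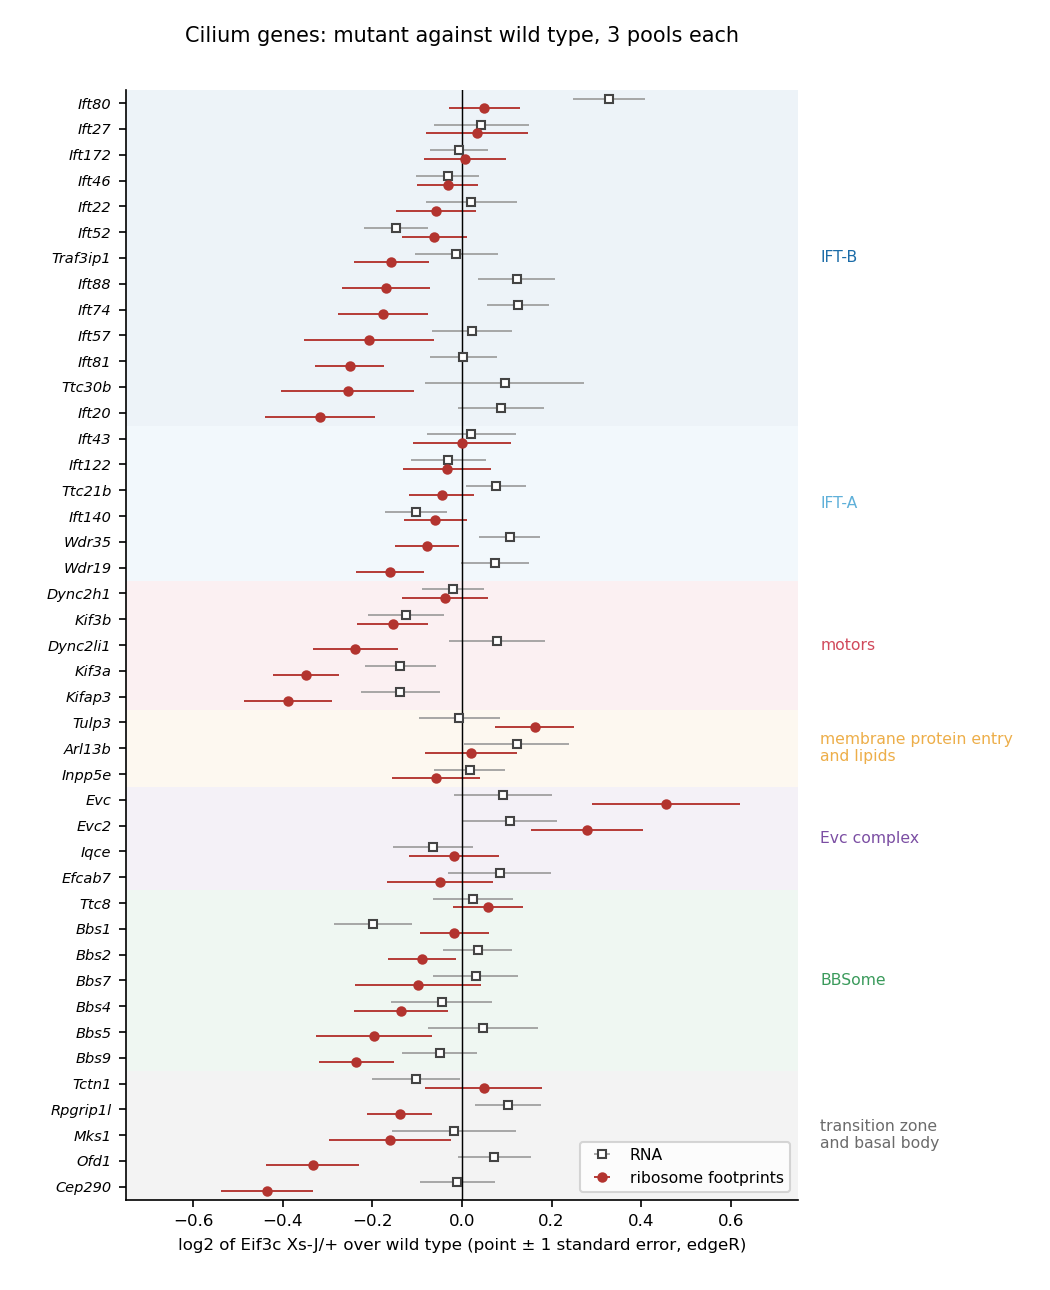
Change of the 43 cilium genes in the mutant, as log2 of mutant over wild type in RNA (open squares) and footprints (filled circles), bars 1 SE, ordered by footprint change within each role. Most footprint values lie left of 0 (33 of 43), all 5 motors among them, while Evc, Evc2 and Tulp3 lie right of it, and RNA values stay within -0.20 and 0.33.

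The motors had the lowest footprint values as a group: all 5 were below 0, with a median of -0.24. Kif3a (chr11:53567379-53601967), the motor subunit of kinesin-II whose loss removes the cilium, had 162, 156 and 164 CPM of footprints in wild-type pools 1, 2 and 3 and 119.8, 137 and 122 in the mutant pools. Every mutant pool was below every wild-type pool (-0.35 ± 0.07, adjusted p = 0.0757, the smallest of the 43). Its RNA was 146, 141 and 133 against 117, 143 and 123 CPM, below wild type in mutant pools 1 and 3 and within its range in pool 2 (-0.14 ± 0.08). Kifap3 (chr1:163779583-163917109) followed the same pools, with footprints of 274, 267 and 282 against 187, 244 and 198 CPM (-0.39 ± 0.10, adjusted p = 0.0932) and RNA of 168, 157 and 158 against 129, 169.6 and 142. Mutant pool 2 is the highest of the mutant pools for both genes in both assays. Summed neuron markers, given above, were also highest in pool 2 of the mutant pools and lower than wild type in all 3, and their part in these values was not tested. Kif3b had 56.1, 54.4 and 56.7 against 46.1, 53.2 and 50.9 CPM of footprints, also without overlap (-0.16 ± 0.08). Dync2li1 had 29.9, 26.9 and 27.3 against 21.9, 25.3 and 24.1 CPM (-0.24 ± 0.09, adjusted p = 0.179) with no lower RNA (0.08 ± 0.11). Dync2h1, its heavy chain, overlapped between genotypes in both assays (footprints -0.04 ± 0.10).

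Among the 13 IFT-B genes, 10 had footprint values below 0, with a median of -0.16, and 4 had RNA values below 0. Ift81 (chr5:122550204-122614518) had 75.7, 77.1 and 80.9 CPM of footprints in wild type and 60.4, 65.5 and 70.4 in the mutant, without overlap (-0.25 ± 0.08, adjusted p = 0.123). Its RNA overlapped between genotypes (0.00 ± 0.08). Ift20 had 9.79, 10.3 and 8.95 against 7.40, 7.45 and 8.34 CPM of footprints, all mutant pools lower (-0.32 ± 0.12, adjusted p = 0.175), and 19.9, 19.9 and 20.0 against 20.6, 22.2 and 20.8 CPM of RNA, all mutant pools higher. Ift81's partner Ift74 (-0.18 ± 0.10) and Ift88 (-0.17 ± 0.10) had negative footprint values with overlapping pools: Ift88, whose hypomorphic allele is a classical model of ciliary loss, had 41.7, 38.7 and 42.8 against 31.6, 39.4 and 38.6 CPM. Ift172 had a mean difference near 0, with 69.8, 68.3 and 71.7 against 80.2, 67.2 and 63.9 CPM (0.01 ± 0.09), its mutant pools lying on both sides of wild type. Traf3ip1, a microtubule-binding IFT-B subunit, had 27.5, 27.8 and 28.4 against 25.2, 23.9 and 25.9 CPM (-0.16 ± 0.08), without overlap.

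Ift80 had the smallest p of the 43 in RNA. Its RNA was 50.0, 51.5 and 52.0 CPM in wild type and 64.4, 58.7 and 69.7 in the mutant, with every mutant pool higher (0.33 ± 0.08, adjusted p = 0.0745). Its footprints were 46.0, 43.6 and 42.2 against 48.4, 44.9 and 43.4 CPM and overlapped (0.05 ± 0.08). Ift80 RNA passed with DESeq2 among 407 genes (3.04%) and without mutant pool 2 among 1528 genes (11.3%), in the latter beside lower Kif3a and Kifap3 RNA.

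Of the 6 IFT-A genes, 5 had footprint values below 0, with a median of -0.05, and none reached an unadjusted p of 0.05. Wdr19 was nearest, with 54.4, 56.2 and 55.3 against 51.4, 51.3 and 45.8 CPM, without overlap (-0.16 ± 0.08, adjusted p = 0.243). Wdr35 had 64.0, 58.5 and 61.3 against 59.4, 57.9 and 57.2 CPM (-0.08 ± 0.07, and 0.01 ± 0.07 with an offset for GC content), beside RNA that was higher in every mutant pool, 66.4, 70.3 and 67.6 against 71.3, 76.3 and 72.7 CPM (0.11 ± 0.07). Ift122, which restrains Hedgehog signalling, had 75.2, 65.4 and 68.5 against 74.99, 70.4 and 59.5 CPM of footprints, with wide overlap (-0.03 ± 0.10).

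Evc, Evc2 and Tulp3 had higher footprints in every mutant pool. Evc (chr5:37289098-37336894) had 7.55, 5.75 and 6.19 CPM of footprints in wild-type pools 1, 2 and 3 and 7.58, 10.6 and 8.80 in the mutant pools. Mutant pool 1 barely exceeded wild-type pool 1 (0.46 ± 0.16, adjusted p = 0.157). Its RNA overlapped, with 34.1, 34.3 and 32.3 against 36.8, 30.0 and 40.4 CPM. Evc2, which lies beside Evc in the genome, had 13.2, 15.3 and 11.7 against 15.9, 15.7 and 16.9 CPM of footprints, again without overlap and at low counts (0.28 ± 0.13, adjusted p = 0.222). Efcab7 and Iqce, which anchor the complex at the base of the cilium, were near 0 (-0.05 ± 0.12 and -0.02 ± 0.10). Tulp3 had 20.5, 20.4 and 20.6 against 23.2, 22.2 and 23.3 CPM, without overlap (0.16 ± 0.09, adjusted p = 0.298). Inpp5e, with 18.7, 18.4 and 18.5 against 18.2, 16.5 and 18.6 CPM, and Arl13b, with 14.7, 14.1 and 13.7 against 13.8, 14.4 and 14.9 CPM, overlapped between genotypes.

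Of the 7 BBSome genes, 6 had footprint values below 0. Bbs9 had 30.8, 28.7 and 31.8 against 26.7, 26.1 and 24.9 CPM, without overlap (-0.24 ± 0.08, adjusted p = 0.156). Bbs5 had 12.1, 12.3 and 11.2 against 9.54, 9.42 and 11.9 CPM (-0.20 ± 0.13) and Bbs4 27.2, 24.7 and 27.1 against 22.4, 27.2 and 22.5 CPM (-0.14 ± 0.10), both with overlap through 1 mutant pool. In RNA, Bbs1 was lower in every mutant pool, with 33.8, 34.9 and 31.7 against 28.2, 29.5 and 30.1 CPM (-0.20 ± 0.09, adjusted p = 0.267), while its footprints overlapped (-0.02 ± 0.08).

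The largest negative value in footprints was that of a gate protein. Cep290 (chr10:100487558-100574840), a long protein that links membrane and microtubules in the transition zone, had 52.8, 46.3 and 56.6 CPM of footprints in wild type and 39.7, 34.5 and 41.2 in the mutant, without overlap (-0.44 ± 0.10, adjusted p = 0.0854). Its RNA overlapped, with 88.3, 91.2 and 91.6 against 90.5, 78.9 and 99.7 CPM (-0.01 ± 0.08). Ofd1 (chrX:166390033-166440704) had 29.5, 27.0 and 29.6 against 20.9, 25.7 and 21.9 CPM of footprints, without overlap (-0.33 ± 0.10, adjusted p = 0.122), and RNA of 46.1, 43.2 and 41.2 against 46.9, 46.9 and 43.3 CPM. Rpgrip1l had 44.6, 42.6 and 44.5 against 40.8, 39.9 and 39.1 CPM of footprints, all mutant pools lower (-0.14 ± 0.07, adjusted p = 0.278), and RNA that was higher in every mutant pool (0.10 ± 0.07). Mks1 and Tctn1 overlapped (-0.16 ± 0.14 and 0.05 ± 0.13). For Tctn2, whose counts cover the whole transcript, footprints were 27.6, 26.0 and 25.3 CPM in wild type and 33.1, 32.5 and 33.4 in the mutant, all mutant pools higher, with overlapping RNA (56.2 ± 4.17 against 56.7 ± 1.56, SD, n = 3). It was not tested in the fit.

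**Figure D4:**
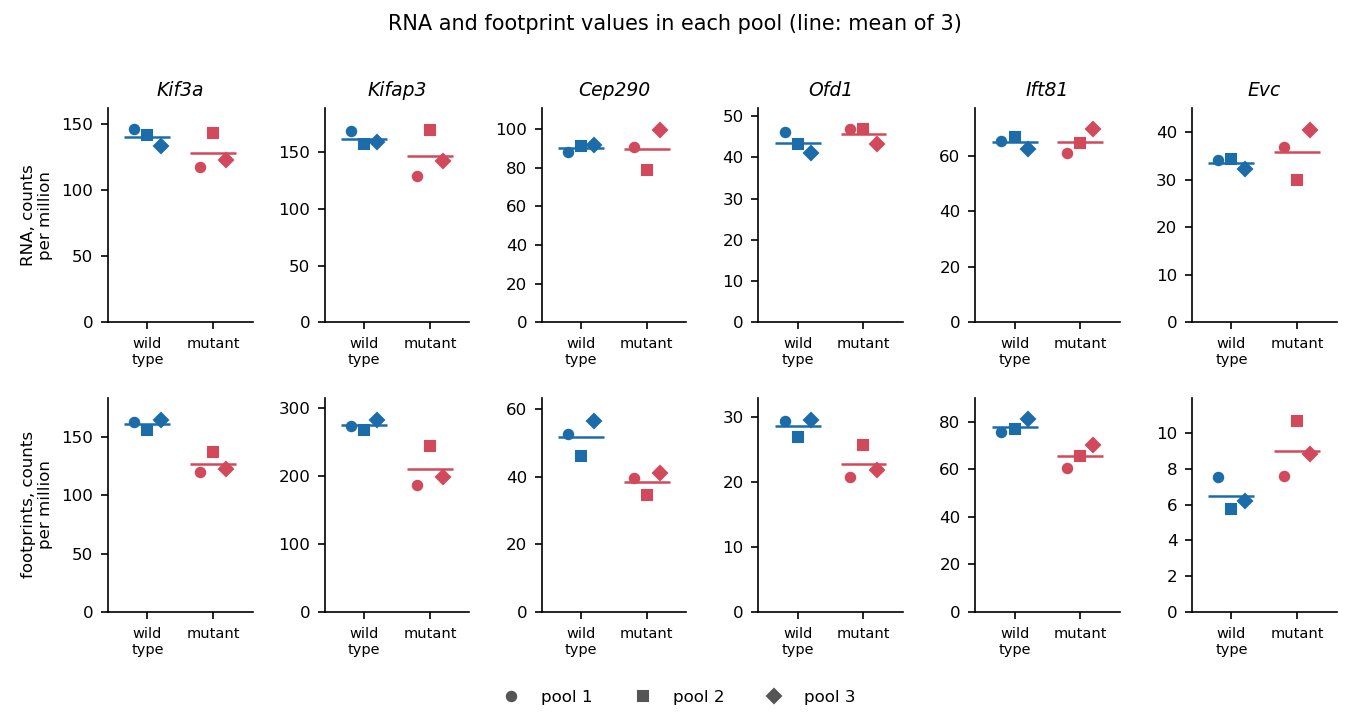
RNA (top) and footprints (bottom) of 6 cilium genes in CPM, each pool a point (circle pool 1, square pool 2, diamond pool 3), lines the means of 3 pools, axes from 0. In footprints the mutant pools of Kif3a, Kifap3, Cep290, Ofd1 and Ift81 lie below all wild-type pools and those of Evc above, while the RNA of each overlaps; mutant pool 2 is nearest to wild type for Kif3a and Kifap3.

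Translational efficiency, the change in footprints relative to RNA, was tested with a genotype-by-assay term in a fit of all 12 libraries, and no gene passed, cilium gene or other (0.0% of 13877). At an unadjusted p under 0.05, 10 of the 43 were lower (23.3%, against 4.87% of all genes) and 0 higher (against 4.99%), 33 were below 0 (49.4% of all genes were), and the median was -0.13 against 0.00. Pools did not overlap with the mutant lower for 15 genes (34.9%, against 12.8%) and higher for 2 (against 10.9%), these being Tulp3 and Ift52. The 10 were Ofd1 (-0.41 ± 0.13), Cep290 (-0.43 ± 0.13), Ift20 (-0.40 ± 0.14), Rpgrip1l (-0.24 ± 0.09), Ift80 (-0.28 ± 0.11), Ift81 (-0.26 ± 0.10), Ift74 (-0.30 ± 0.13), Dync2li1 (-0.31 ± 0.14), Wdr19 (-0.23 ± 0.10) and Wdr35 (-0.19 ± 0.09), with adjusted p from 0.438 to 0.506. Train subunits, gate proteins and a motor subunit were thus all among them, and no BBSome, Evc complex or membrane entry gene was. The BBSome median was nevertheless -0.13, as for all 43, with 5 of its 7 genes below 0. With the cell pool as a block, 88 genes passed in all and none of the 43.

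These values moved with the base composition of the genes. The coding sequences of the 43 are poorer in GC than those of other genes, with a median of 48.4% against 53.3%, and longer, with a median of 1971 against 1368 nt counted and 18 against 9 exons. Over all genes, the median change in efficiency climbed from -0.34 at 35 to 40% GC to -0.11 at 45 to 50% and 0.20 at 60 to 65%. The cilium genes lay along the same slope: their efficiency medians were -0.24 (9 genes) at 40 to 45% where all genes had -0.22, -0.19 (15 genes) at 45 to 50% where all genes had -0.11, -0.01 (8 genes) at 50 to 55% against 0.00, and 0.15 (9 genes) at 55 to 60% against 0.10. Cep290 (38.9% GC) and Ofd1 (42.3%) are at its low end, and Evc (58.2%) and Evc2 (57.2%) at its high end. Spearman's rho of the change with GC was 0.73 over the 43 genes and 0.59 over all genes for efficiency, 0.56 and 0.43 for footprints, and -0.33 and -0.19 for RNA, as descriptions over genes that share the same libraries.

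In footprints the medians of the cilium genes were -0.17 at 40 to 45% GC where all genes had -0.13, -0.14 at 45 to 50% against -0.08, -0.05 at 50 to 55% against 0.00, and 0.00 at 55 to 60% against 0.09. With an offset for GC content in the fit, 29 of 43 footprint values were below 0 (49.6% of all genes were), with a median of -0.04 against 0.00. Of the 8 genes lower at an unadjusted p under 0.05, Kif3a and Kifap3 remained so. The others of the 8 kept values below 0 but no longer reached that level. Traf3ip1, which was not among the 8, joined Kif3a and Kifap3. Ift74, also not among the 8, turned from -0.18 ± 0.10 to 0.02 ± 0.07. Thus 3 of 43 were lower at that level. Without the offset 11.1% of all genes were, and their share with it is not given here. For efficiency 27 of 43 values were below 0 (54.6% of all genes), with a median of -0.05 against -0.02. None of the 10 genes lower in efficiency at an unadjusted p under 0.05 remained so, and Ift52 was higher at that level (0.19 ± 0.08). In RNA, 24 of 43 values were below 0 with the offset (48.8% of all genes were). Footprints of Kif3a (-0.27 ± 0.06, adjusted p = 0.0887) and Kifap3 (-0.27 ± 0.08, adjusted p = 0.134) had smaller values than without the offset. Footprints of Cep290 (-0.22 ± 0.12, adjusted p = 0.347), Ofd1 (-0.19 ± 0.09) and Ift81 (-0.13 ± 0.07) did as well. With the offset, RNA of Kif3a was at -0.17 ± 0.07 and of Kifap3 at -0.22 ± 0.08. Their efficiency values were then -0.11 ± 0.10 and -0.06 ± 0.12. Whether the trend with GC arose in the embryos or in the making of the libraries cannot be told apart here.

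**Figure D5:**
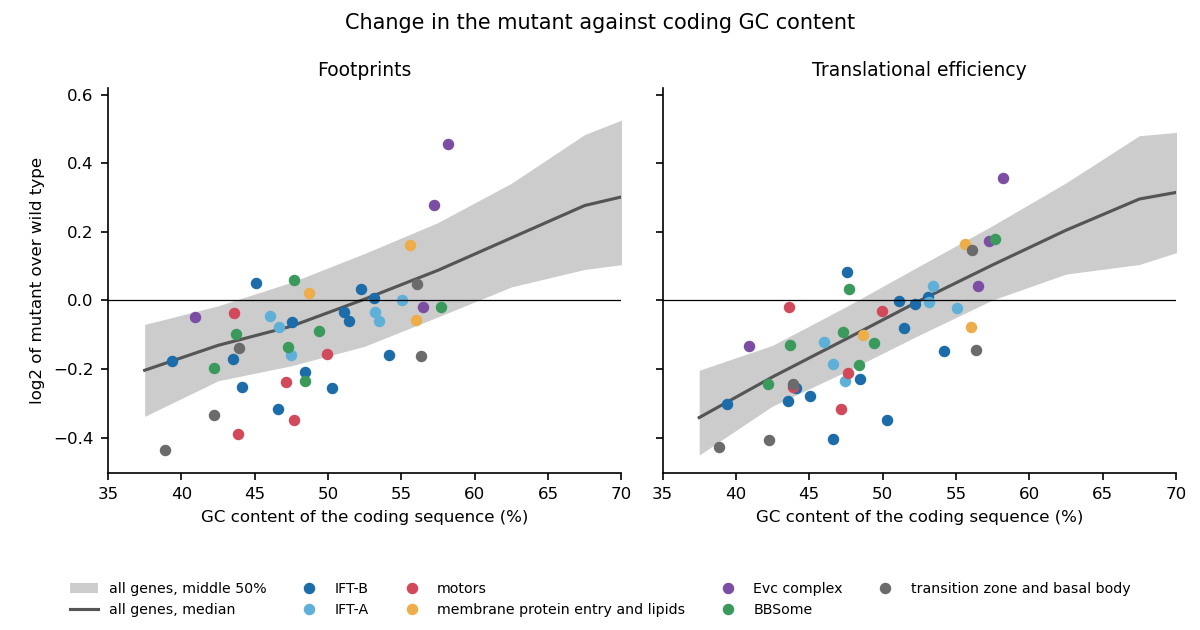
Change in the mutant against coding GC content for footprints (left) and translational efficiency (right), as log2 of mutant over wild type; coloured points are the 43 cilium genes by role, the line is the median and the band the middle 50% of all genes in steps of 5% GC. The points follow the upward course of the line, from Cep290 (38.9% GC, -0.44 in footprints) to Evc (58.2% GC, 0.46).

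The factor eIF3 is known to act in scanning of the 5' UTR and in reinitiation after upstream reading frames. Footprints on the 5' UTR relative to the coding sequence were tested for the 39 cilium genes with enough counts. None passed, where 1.88% of all 13243 genes did. At an unadjusted p under 0.05, 5 were higher in the mutant (12.8%, against 9.42% of all genes) and 0 lower (against 7.05%): Tctn1 (0.82 ± 0.31), Traf3ip1 (0.81 ± 0.28, adjusted p = 0.143), Ift57 (0.71 ± 0.30), Ttc30b (0.68 ± 0.30) and Dync2li1 (0.44 ± 0.18). The counts behind them are small: the Traf3ip1 leader held 8 to 40 footprints per wild-type pool and 14 to 19 per mutant pool. Ift20, with its 8 upstream ATG triplets, had 0.09 ± 0.16, and Inpp5e, whose 613 nt leader holds 3, had -0.09 ± 0.14. The median of the 39 was 0.05 and that of all genes -0.01. Without mutant pool 2, Ift57 passed among 505 genes (3.79%). With the library as a block, 652 genes passed and none of the 39.

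Of 75 other cilium genes listed beside these (further train, BBSome and gate subunits, distal appendage proteins and ciliary Hedgehog proteins), 72 passed the filter in both assays, and none passed the test in RNA or footprints. Their footprint values were balanced, 36 below and 36 above 0, with a median of -0.00084. The 4 of smallest p were Smo (23.9 ± 1.63 against 33.4 ± 4.91 CPM, SD, n = 3; 0.49 ± 0.12, adjusted p = 0.0863), the Hedgehog transducer that enters the cilium, Cep164 (0.38 ± 0.09), a distal appendage protein, Pcm1 (-0.26 ± 0.06), the scaffold of centriolar satellites, and Ahi1 (-0.25 ± 0.07), a gate protein. The difference between the 2 lists was not tested. In footprints on the 5' UTR relative to the coding sequence, Lztfl1, a regulator of the BBSome, passed (1.33 ± 0.25, adjusted p = 0.0160). Of 24 genes of motile cilia listed as a contrast, 20 passed the filter in footprints and none passed the test, 14 of the 20 having values above 0.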

How the data were processed

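Per the labels' protocols, footprints of 28 to 31 nt and poly(A) RNA fragments of 30 to 50 nt were sequenced. Per the submitters' processing notes, cutadapt, STAR and bedtools were used with mm10. Tool versions, strand setting, handling of reads shared between genes, and which base of a footprint was counted were not stated in those sources. The authors deposited raw counts per transcript for the whole transcript, the 5' UTR and the coding sequence, which leaves out the first 15 and last 5 codons.

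Of 122941 transcript identifiers, 148 had no gene in GENCODE vM21, and identifiers without a gene held 0.328% of coding counts. Each gene was represented by 1 coding transcript (65.7% of genes have several), and the 2 runs of 4 lanes were summed into 12 libraries, leaving out 4 incomplete lanes. Genes were filtered with filterByExpr (minimum count 10, total 15), scaled by TMM and tested with edgeR 4.0.16 (glmQLFit and glmQLFTest) in R 4.3.3, fitting RNA and footprints over 6 libraries each and translational efficiency, wild-type footprints per mRNA and 5' UTR against coding footprints as assay or region terms. Benjamini-Hochberg adjustment ran over all genes tested. The ratio in each pool adds 0.5 CPM. Alternatives used DESeq2 1.42.0 and limma 3.58.1 (voom), other scalings, no filter, GC offsets (loess span 0.3), a replicate block and leaving out each pool; figures used Matplotlib 3.10.9. On simulated data, genes changed by 1 on the log2 scale were recovered at 99.5% in RNA (13406 genes) and 100% in footprints (13423 genes). Recovery was 91.5% in translational efficiency (13877 genes) and 70% in the 5' UTR test (13243 genes). False calls made up 3.17 to 7.83% of the calls over the 5 tests. The simulation gave all genes of a test the same spread and changed only genes with higher counts. Smaller changes, such as those of the cilium genes between genotypes, were not simulated, so their recovery is not known.

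RNA and footprint libraries of the same number came from the same cells, and their deviations from the group means correlated at 0.248 to 0.617 over genes. Named genes were, for each role, those of smallest p in each comparison, the highest and lowest in footprints per kb, and a fixed set of well-studied members. The members and gene lists were chosen with earlier results of these data known.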

Additional observations from a re-analysis of the deposited data

How the results depend on the processing

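Counts of genes past the threshold depended on the method and on single pools, and no cilium gene passed in the mutant under the other scalings, limma-voom, the replicate block or the GC offsets. In RNA, 52 genes passed, against 462 with no filter, 407 with DESeq2, 87 with limma-voom, 196 with the replicate block, 1 with counts summed over transcripts, 22 with the whole coding sequence, and 2 with GC offsets, alone or with the block. Leaving out 1 pool gave 1 to 1528 (1528 without mutant pool 2). Ift80 passed with no filter and with DESeq2 (1 member each), and 0 to 3 members passed with a pool left out, the 3 without mutant pool 2.

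In footprints, 34 genes passed, against 243 with no filter, 838 with DESeq2, 130 with limma-voom, 9 with all lanes, 22 summed over transcripts, 59 with the whole coding sequence, 59 without Y-linked genes (an alternative chosen after seeing the data) and 3 with block and GC offsets (also chosen then). Leaving out 1 pool gave 8 to 2333. Members called were 2 with no filter (Cep290, Kif3a), 3 with DESeq2 and 0 to 4 with a pool left out, and the member median was -0.044 with GC offsets, -0.045 with block and GC offsets, and -0.11 to -0.067 with a pool left out.

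For translational efficiency, where 0 genes passed and 1368 had an unadjusted p under 0.05, 22 passed with DESeq2, 88 with the replicate block, 3 with block and GC offsets and 0 to 1 with a pool left out. The member median was -0.10 with all lanes, -0.051 with GC offsets, alone or with the block, and -0.15 to -0.089 with a pool left out. For wild-type footprints per mRNA the member median was -0.12 summed over transcripts, -0.24 with the whole coding sequence, 0.027 with GC offsets and 0.039 with block and GC offsets, and 18 members were below 0 with GC offsets, alone or with the block, in place of 31. Of the 43, 25 were called with GC offsets and 33 with the replicate block, in place of 28. The share of all genes called with the block is not given here. Of 5' UTR tests, 249 genes passed, against 824 with DESeq2, 652 with the replicate block, 47 with all lanes, 150 summed over transcripts and 2 to 505 with a pool left out, where 0 to 1 members passed.

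Over all alternatives run, the sign changed at least once for 21 of 43 members in RNA, 15 in footprints, 16 in translational efficiency, 16 in wild-type footprints per mRNA and 23 of 39 in the 5' UTR test. Among the genes named for a comparison by the fixed rule, these were Wdr35 footprints (0.026 with all lanes, 0.014 with GC offsets, 0.015 with block and GC offsets), Ahi1 footprints (0.11 with all lanes), wild-type footprints per mRNA of Bbs9, Ift80 and Wdr35 with GC offsets (0.015, 0.016 and 0.066, and with the block 0.014, 0.019 and 0.067), and 5' UTR values of Bbs5 (-0.0019, without mutant pool 1, to 0.45 over the pools left out) and Inpp5e (-0.14 to 0.014, the latter without mutant pool 3). The cause was not tested. Pools of the same number carry the same TC code in the sample titles of both genotypes. Whether such pools share a litter or a collection is not known here. Deviations of same-numbered pools correlated at 0.056 to 0.126 in RNA and -0.122 to -0.059 in footprints. With 3 pools per genotype these values cannot settle whether the pools are paired, and the main fits treated them as unpaired. With the block, 0 members passed in any comparison of the genotypes, and their median was -0.08 in footprints and -0.12 in translational efficiency. Evc and Ttc30b had the fewest wild-type footprints of the members (6.50 and 7.45 CPM), and mutant footprint pool 1 is the shallowest library.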
